A study of Mus musculus with 24 samples.

Results

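Cytosolic ribosomal protein genes were taken from the deposited table as the loci with a single gene name that begins Rpl or Rps followed by a digit, or that is Rplp0, Rplp1, Rplp2 or Rpsa. Names that begin Rps6k, which are kinases, and names marked as pseudogene copies were left out. The rule used names only and no measured value, but the members were chosen with earlier results of these data known. It gave 85 of 31027 loci, and 81 of them had a mean of at least 1 FPKM (fragments normalised to transcript length and to the fragments of the library) over all libraries and were tested. Of these 81, 75 encode the proteins of the standard ribosome, 44 of the large subunit with its stalk proteins and 31 of the small subunit. The other 6 were the paralogue genes Rpl22l1, Rpl7l1 and Rps27l, the gene Rps19bp1 of a protein that binds Rps19, the pseudogene Rps4y2 and a copy named Rpl29 on chromosome 5. The 4 members not tested were Rpl10l, Rpl39l, Rpl3l and a copy named Rpl29 on chromosome 1.

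RNA of mouse liver was sequenced in 24 libraries, 3 in each of 8 groups. All mice were of the strain C57BL/6J and carried AlbCre, in which the albumin promoter drives Cre recombinase in hepatocytes, so the control group is AlbCre+ and labelled wild type. Whether the other cells of the liver keep both kinase genes was not tested. The other genotypes were Jnk1flox/flox, Jnk2flox/flox and both together, named Jnk1, Jnk2 and Jnk1Jnk2 below. Feeding lasted 16 weeks, on chow or on high fat diet, for each genotype. The labels give no age, and whether the 3 libraries of a group came from separate mice is not stated there; a p-value here therefore reflects only the spread among these libraries, and that spread may be technical. The comparisons ask how the loss of these stress-activated kinases in hepatocytes, the diet, and the combination of diet and genotype changed the ribosomal protein mRNAs.

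The ribosome holds a single copy of nearly every ribosomal protein, so the genes are transcribed at similar, high rates, and a protein made in excess of its partners is degraded. Their mRNAs are short and begin with a run of pyrimidines, the terminal oligopyrimidine or TOP motif, through which the kinase mTOR and the protein Larp1 set their translation and their stability. In liver these mRNAs are among the most abundant after those of the secreted plasma proteins. Because the transcripts are short, their median length being 733 bases (345 to 5179) against 2334.5 over all tested loci, shares of other loci of similar length are given beside those of all loci where members passed a test.

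The pyrimidine motif and a site of ETS transcription factors, both known from these promoters, were looked for in promoter sequences of RefSeq (build GRCm38.p6), for which 57 of the 81 tested members had an entry that started within 100 bases of the deposited locus. The letters CTTTC stood on the transcribed strand, in the window from 10 bases before to 50 bases after the start, in 22 of 57 members (38.6%) and in 7.2% of 27025 promoters. CTCTTT, which can overlap it, stood there in 14 members (24.6%) and in 2% of promoters. CCGGAAG was found on either strand of the 300 bases around the start in 23 members (40.4%) against 9.12%. GGGCGG was found on either strand in 36 members (63.2%) against 35.9%, and TATAA on the transcribed strand in 15 (26.3%) against 18.2%. The sequences below run from 30 bases before to 20 bases from the annotated start, 5′ to 3′ on the gene's strand, with the letters of the first 3 of these motifs in capitals. The first 4 hold such a motif at or near the start, and the last 4 are the genes whose levels the results turn on.
Rplp2 (chr7:141447621-141447670, plus strand): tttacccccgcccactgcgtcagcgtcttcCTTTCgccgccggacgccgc
Rpl28 (chr7:4792935-4792984, plus strand): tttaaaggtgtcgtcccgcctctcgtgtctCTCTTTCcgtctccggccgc
Rpl38 (chr11:114668550-114668599, plus strand): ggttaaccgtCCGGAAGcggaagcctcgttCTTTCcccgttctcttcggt
Rps6 (chr4:86857348-86857397, minus strand): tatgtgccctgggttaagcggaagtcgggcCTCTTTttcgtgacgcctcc
Rpsa (chr9:120127736-120127785, plus strand): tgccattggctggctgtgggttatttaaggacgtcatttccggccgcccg
Rplp0 (chr5:115559437-115559486, plus strand): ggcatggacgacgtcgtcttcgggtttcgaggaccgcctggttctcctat
Rpl41 (chr10:128549149-128549198, minus strand): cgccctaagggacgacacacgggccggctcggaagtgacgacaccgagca
Rps24 (chr14:24490648-24490697, plus strand): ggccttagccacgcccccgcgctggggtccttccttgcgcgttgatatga
None of the last 4 windows holds the capitalised letters, which says only that these letters are not in these 50 bases. In the windows used for the shares above, which reach further, Rpsa held CTTTC and CCGGAAG, Rpl41 held CCGGAAG and Rps24 held CTCTTT. Rplp0 held none of these 3 motifs there.

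Both targeted genes were lower in the libraries labelled with their deletion. Mapk8, which encodes Jnk1, was 3.38 to 5.77 FPKM in the libraries of the control and Jnk2 groups and 0.845 to 2.47 in those of the Jnk1 and Jnk1Jnk2 groups. Mapk9, which encodes Jnk2, was 9.01 to 12 FPKM in control and Jnk1 libraries and 4.33 to 7.79 in Jnk2 and Jnk1Jnk2 libraries. The liver genes Apoa2 and Ttr were at 11731 ± 484 and 2749 ± 249 FPKM (SD, n = 3) in chow control liver. Alb, the defining gene of hepatocytes, was 15236 to 28474 FPKM in 20 libraries and was listed at 0 in the other 4, which were chow control library 1, chow Jnk2 libraries 2 and 3 and high fat Jnk1 library 1. An exact 0 for such a gene can be a failed estimate, and it lowers the FPKM sum of those libraries. No tested member was listed at 0 in any library. In all libraries, none of the 8 lymphocyte markers and none of the 8 proliferation markers reached the level to be tested. Read counts were not used here, so depth is unknown. The deposited values summed to 634849 to 734352 FPKM in 21 libraries and to 849038, 873399 and 852069 in the high fat Jnk1Jnk2 libraries. The same 3 libraries stood apart in a second way: the deviation of a locus from its mean fell with transcript length there (Spearman correlations across loci of -0.51, -0.56 and -0.53) against -0.18 to 0.37 in the other 21. Counts of members and most named changes that involve this group are therefore given as deposited and with the trend of each library on transcript length removed.

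The ribosomal protein genes were among the highest in the table. The median of their mean levels was 381 FPKM, against 7.29 FPKM over all tested loci, and 72 of the 81 were above 100 FPKM. The standard members lay close together: their 10th and 90th percentiles were 170 and 722 FPKM. Highest were Rpl41, the gene of the smallest ribosomal protein, with a mean of 1813 FPKM over the 24 libraries, Rps27 with 1123, Rps18 with 991, Rpl9 with 826 and Rps12 with 808. Lowest of those tested were the Rpl29 copy on chromosome 5 with 10.3 FPKM, Rps15a with 10.4, Rps19bp1 with 13.8, Rps4y2 with 14.1 and Rpl7l1 with 21.2. Rps15a is a standard member of the small subunit; its locus (chr7:118104376-118116147) carried a transcript length of 5179 bases, and the copies Rps15a-ps6 and Rps15a-ps4, which the choice of names left out, were at 24 and 21.4 FPKM. Many of these genes have processed copies elsewhere in the genome, and how reads that fit several copies were shared is not given in the sources used here, so levels of single members are uncertain in that respect. Together the members made 3.57% to 5.99% of the summed FPKM of a library, and 3.78% to 6.31% when 16 loci that were high but listed at 0 in some library were left out of the sum. The share of the whole sum was 4.39% ± 0.813 (SD, n = 3) in high fat control and 4.96% ± 0.191 in high fat Jnk1Jnk2 liver, and the libraries of these groups overlapped.

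The paralogue pairs differed in how alike their levels were. Rpl22, which binds double-stranded RNA, and its partner Rpl22l1 were at 66.5 and 57.7 FPKM. Rps27 and Rps27l, a p53 target, were at 1123 and 714 FPKM, and Rpl7 and Rpl7l1 were at 338 and 21.2. The partners known from testis or muscle were near or at 0. Rpl10 was at 617 FPKM while Rpl10l was listed at 0 in 23 libraries, and Rpl39 was at 419 FPKM while Rpl39l was at most 0.316. Rpl3, a protein close to the peptidyl transferase centre, was at 170 FPKM, and its muscle partner Rpl3l was below 1 FPKM in 23 libraries and 4.28 in high fat Jnk1Jnk2 library 3. Rpl36a, on the X chromosome, was at 381 FPKM.

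On the high fat diet, most ribosomal protein genes had higher deposited FPKM in liver without both kinases than in control liver. The FPKM of all loci also summed higher there, to 849038 to 873399 against 634849 to 696265 in control libraries. As a share of that sum the members were at 4.96% ± 0.191 (SD, n = 3) against 4.39% ± 0.813, and the libraries overlapped. Of 81 members, 60 were higher and 0 lower in high fat Jnk1Jnk2 than in high fat control liver (limma on log2(FPKM + 1), Benjamini-Hochberg adjusted p under 0.05), the median change was 0.59 on the log2 scale, and all 81 changes were positive. Among all tested loci 19.6% were higher and 31.6% lower. The large subunit gave 33 of 44, the small subunit 24 of 31 and the other members 3 of 6. The values of the 3 libraries lay above all 3 control values for 52 members (64.2%), against 19.7% of all tested loci and 42.4% of loci of similar length. With high fat control library 1 left out 48 members were higher, and with library 2 left out 68, the extremes of that check. Here as elsewhere in whole liver, a change of cell types and a change of RNA within a cell cannot be told apart.

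Other short transcripts rose in the same libraries. Of 2204 other tested loci of 437 to 1358 bases, the 10th to 90th percentile of the members' lengths, 43.2% were higher, with a median change of 0.31. Of the 274 of them above 100 FPKM, a level chosen after the values were seen, 65.3% were higher, with a median of 0.52. With the length trend removed, 44 members were higher and 0 lower, against 19.4% of all tested loci, the median change was 0.38 and 74 of 81 changes were positive. The same step left 22.9% of loci of similar length higher (median 0.07), and 46.7% of those above 100 FPKM (median 0.30). The set called both ways held 42 members, a count that was not made over all tested loci. Leaving out 1 library at a time gave 34 to 52 called members with the trend removed. The plot of change against transcript length shows the members beside the other loci at each length.

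**Figure D1:**
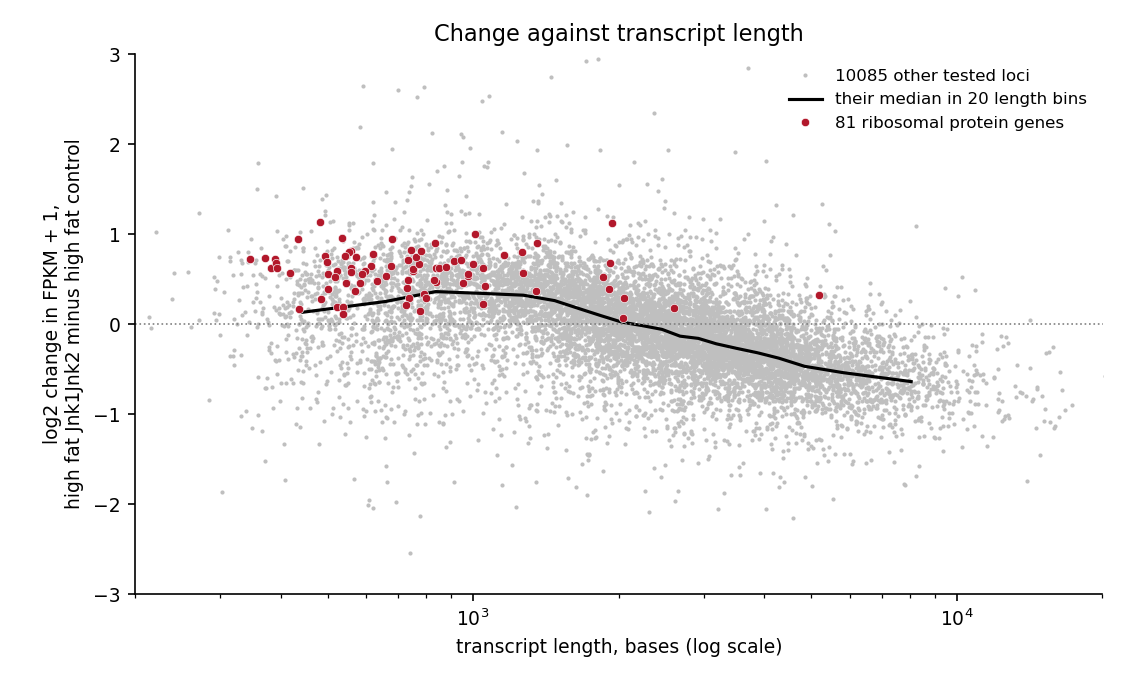
Log2 change in FPKM + 1 between high fat Jnk1Jnk2 and high fat control liver (y axis) against transcript length in bases on a log scale (x axis), for the 81 tested ribosomal protein genes (red) and 10085 other tested loci (grey), with the median of the other loci in 20 length bins (black line). The red points lie above 0 at all lengths, with a median of 0.59, and 77 loci fall outside the axes.

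In length classes the members' share stayed high while that of other loci varied. Of members of 345 to 500 bases, 69.2% of 13 were higher, against 29.4% of other loci in that class. From 500 to 700 bases the shares were 76% of 25 members and 38.8%, and from 700 to 1000 bases 76.9% of 26 members and 44.5%. From 1000 to 6000 bases 70.6% of 17 members were higher, with a median change of 0.52, against 16.8% of other loci with a median of -0.10. The other loci of a class were not matched to the members in level, nor in length within the class.

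The stalk of the large subunit, which recruits elongation factors, is built from Rplp0, Rplp1 and Rplp2, and all 3 of its genes rose. Rplp0 was at 253, 338 and 255 FPKM in high fat control liver and at 516, 537 and 516 in high fat Jnk1Jnk2 liver, a log2 change of 0.90 ± 0.12 (SE; limma, Benjamini-Hochberg adjusted p = 7.57e-06). Rplp2 went from 269, 334 and 313 FPKM to 483, 668 and 620.0, a change of 0.94 ± 0.13 (limma, adjusted p = 1.39e-05). Rplp1 was at 511, 650.3 and 626 FPKM in control libraries and at 674, 1194 and 1077 in Jnk1Jnk2 libraries, a change of 0.69 ± 0.16 (limma, adjusted p = 0.00139). The groups did not overlap for any of the 3 genes, though Jnk1Jnk2 library 1 had an Rplp1 level close to the controls. The changes of Rplp0, Rplp2 and Rplp1 were 0.69, 0.76 and 0.48 once the length trend was removed. That of Rplp1 was 0.42 with quantile normalization and 0.35 with length and GC trends removed, and its call was lost in a fit of these 2 groups alone (limma, adjusted p = 0.0578).

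Rpsa, the small subunit protein also known as the laminin receptor, rose most among the called members as deposited. Its locus (chr9:120127766-120132369, plus strand) was at 209, 311 and 266 FPKM in high fat control liver and at 519.8, 643 and 541 in high fat Jnk1Jnk2 liver, a change of 1.12 ± 0.15 (limma, Benjamini-Hochberg adjusted p = 6.92e-06) and of 1.08 ± 0.14 with the length trend removed (adjusted p = 1.38e-05). The transcript has 1938 bases, longer than most members. Rps15, of the small subunit, was at 409.7, 551 and 400.2 FPKM in control libraries and at 905, 951 and 779 in Jnk1Jnk2 libraries, a change of 0.96 ± 0.14 (limma, adjusted p = 2.62e-05), of 0.75 with the length trend removed and of 0.58 with length and GC trends removed. Both genes were without overlap between the groups, and every Jnk1Jnk2 value of Rpsa was above all 21 other libraries. Rps6, the substrate of S6 kinase, was at 246, 310.2 and 206 FPKM and at 401, 396 and 369, a change of 0.63 ± 0.14 (limma, adjusted p = 0.00109), and of 0.39 with the length trend removed (adjusted p = 0.0413).

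**Figure D2:**
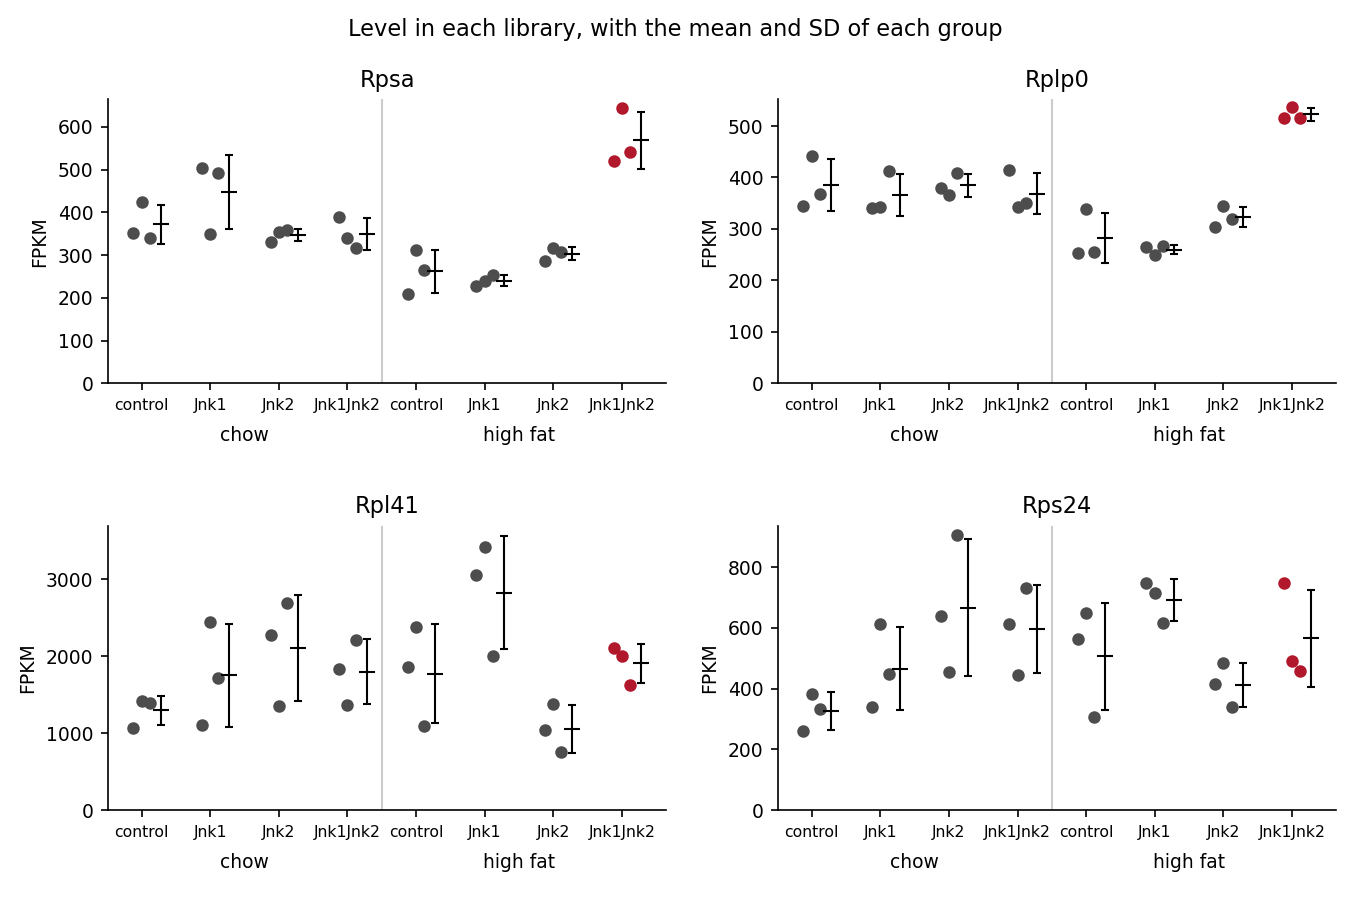
FPKM of Rpsa, Rplp0, Rpl41 and Rps24 (y axes, from 0) in each of the 24 libraries by group (x axes), 3 points per group with the mean and SD beside them and high fat Jnk1Jnk2 in red. Rpsa and Rplp0 are highest in the 3 high fat Jnk1Jnk2 libraries, at 519.8 to 643 and 516 to 537 FPKM, while Rpl41 and Rps24 vary within the groups.

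Rpl14 and Rpl38, of the large subunit, followed the same pattern. Rpl14 was at 125, 171 and 135 FPKM in high fat control liver and at 253, 319 and 287 in high fat Jnk1Jnk2 liver, a change of 1.00 ± 0.12 (limma, Benjamini-Hochberg adjusted p = 2.38e-06). Rpl38, known for its part in the translation of patterning genes, was at 345, 472 and 329 FPKM and at 621, 669 and 585, a change of 0.73 ± 0.12 (limma, adjusted p = 7.81e-05). Rps27 rose by 0.72 ± 0.20 (limma, adjusted p = 0.00598) and Rpl7 by 0.62 ± 0.11 (limma, adjusted p = 0.000165). Without the length trend Rpl14 gave 0.75, Rpl38 0.59, Rps27 0.61 and Rpl7 0.37, and each passed. Quantile normalization gave 0.42 for Rpl38 and 0.34 for Rpl7, and the call of Rps27 was lost in a fit of these 2 groups alone (limma, adjusted p = 0.0506). The calls of Rpsa, Rpl14, Rps15, Rplp2, Rplp0, Rpl38, Rps6, Rpl11 and Rpl7 held under each of the 16 other settings and left-out libraries tried.

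Rpl5 and Rpl11 sit together on 5S ribosomal RNA, in a particle that binds Mdm2 when free. Rpl11 was at 459, 616 and 487 FPKM in high fat control libraries and at 815, 954 and 897 in high fat Jnk1Jnk2 libraries, a change of 0.78 ± 0.12 (limma, Benjamini-Hochberg adjusted p = 4.77e-05), of 0.55 with the length trend removed and of 0.43 with length and GC trends removed. Rpl5 was at 203, 302 and 160.2 FPKM and at 223, 220.0 and 234, a change of 0.07 (limma, adjusted p = 0.777), and of 0.06 with the length trend removed, and its groups overlapped. Whether these 2 changes differ from each other was not tested.

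Other named members gave smaller changes that depended on single libraries. Rpl32, a frequent reference gene in liver, rose by 0.52 ± 0.21 (limma, Benjamini-Hochberg adjusted p = 0.0468) and Rps18, another one, by 0.58 ± 0.22 (adjusted p = 0.0324). Rps14 rose by 0.59 ± 0.20 (limma, adjusted p = 0.0174), Rpl3 by 0.37 ± 0.13 (adjusted p = 0.0238) and Rpl22 by 0.29 ± 0.11 (adjusted p = 0.0325). These 5 calls were lost with the length trend removed, at 0.31, 0.35, 0.37, 0.15 and 0.27 in that order. Without high fat control library 1 the adjusted p by limma was 0.103 for Rpl32, 0.124 for Rps18, 0.0725 for Rps14, 0.139 for Rpl3 and 0.147 for Rpl22. Without high fat control library 3 it was 0.256, 0.157, 0.0835, 0.0552 and 0.0933 in the same order. Leaving out a Jnk1Jnk2 library also ended calls: without library 2 the adjusted p was 0.141 for Rpl32, 0.102 for Rps18, 0.0747 for Rps14 and 0.0585 for Rpl22. Without Jnk1Jnk2 library 3 it was 0.0804 for Rpl32, 0.0527 for Rps18, 0.152 for Rpl3 and 0.141 for Rpl22, and without library 1 it was 0.053 for Rpl32.

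Of the 21 members that did not pass the test, several are well known. Rps19, mutated in Diamond-Blackfan anaemia, gave 0.48 (limma, Benjamini-Hochberg adjusted p = 0.0572), Rps27a, which is made as a fusion with ubiquitin, 0.33 (adjusted p = 0.0871), and Rpl39 gave 0.39 (adjusted p = 0.0741). Rpl10 gave 0.29, Rpl4 0.21 and Rpl13a 0.22. Single libraries decided some of these: without high fat control library 2 the adjusted p by limma was 0.0145 for Rps19, 0.00943 for Rps27a, 0.0111 for Rpl39 and 0.0131 for Rpl10, and without control library 3 it was 0.0056 for Rpl4. Without Jnk1Jnk2 library 1 it was 0.0415 for Rps19, 0.0198 for Rpl39 and 0.0375 for Rpl10. Once that trend with length was removed, Rps19 gave 0.25, Rps27a 0.09, Rpl39 0.18, Rpl10 0.05, Rpl4 -0.03 and Rpl13a -0.02, and none passed. Of the paralogues, Rpl22l1 gave 0.19 and Rps27l 0.11. Rpl41 was at 1857, 2375 and 1086 FPKM in high fat control libraries and at 2100, 2004 and 1621 in high fat Jnk1Jnk2 libraries, a change of 0.17 ± 0.33 (limma, adjusted p = 0.689). Rps24 was at 563, 648 and 308 FPKM and at 749, 489.9 and 459, a change of 0.19 (adjusted p = 0.601). For Rpl41 and Rps24 the spread within the control group, where library 3 was lowest, was wider than the difference between groups. Rpl36a had a change of 1.13 ± 0.59 that did not pass (adjusted p = 0.12), and it rested on library 1, at 1337 FPKM against 396 and 265 in the other 2, with controls of 289, 295 and 157. Without that library its change was 0.45, and without Jnk1Jnk2 library 3 it passed with 1.61 (adjusted p = 0.0438). Once the length trend was removed, Rps15a gave 0.77 ± 0.20 (limma, adjusted p = 0.00438), against 0.32 as deposited (adjusted p = 0.129). That step used the 5179-base transcript length of its locus, the longest among the tested members, and the value depends on that length. Rpl7l1 gave 0.29 with the trend removed (limma, adjusted p = 0.0203), against 0.18 as deposited (adjusted p = 0.117). As deposited Rps15a passed without high fat control library 2 (adjusted p = 0.0378), and Rpl7l1 without that library (0.0424) or Jnk1Jnk2 library 1 (0.0377).

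The plot of library deviations gives the members' place in each library. The deviation of a member is its log2(FPKM + 1) minus its mean over the 24 libraries. The median over members was 0.33, 0.49 and 0.39 in the high fat Jnk1Jnk2 libraries, and there 77, 79 and 76 of the 81 members were above their own mean. It was -0.31, 0.13 and -0.36 in high fat control libraries, with 9, 57 and 7 members above their mean. High fat control library 2 therefore lay apart from the other 2 of its group for most members. Loci of similar length had medians of 0.18, 0.42 and 0.40 in the high fat Jnk1Jnk2 libraries. The members' medians there were 0.24, 0.23 and 0.06 once the length trend was removed.

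**Figure D3:**
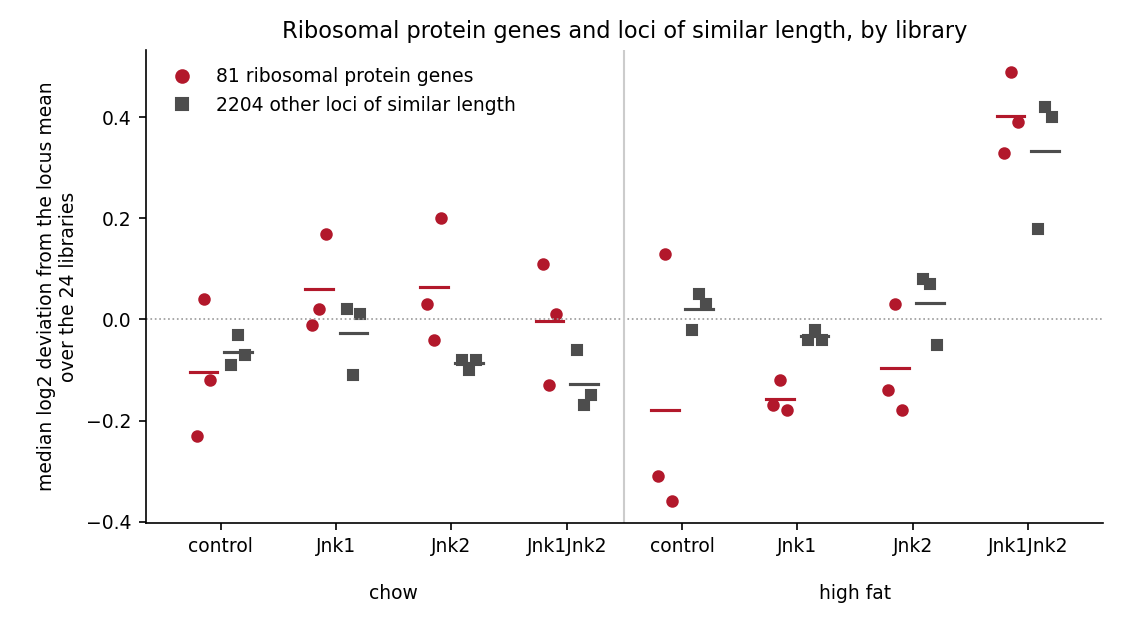
Median log2 deviation from each locus's mean over the 24 libraries (y axis) for the 81 tested ribosomal protein genes (red circles) and 2204 other loci of similar length (grey squares), by group (x axis), 1 point per library and a line at the mean of the 3. The members are at 0.33 to 0.49 in high fat Jnk1Jnk2 libraries, and the loci of similar length rise there too, to 0.18 to 0.42.

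Single deletions moved few members on the high fat diet. In high fat Jnk2 against high fat control liver 7 members were higher and 0 lower (limma, Benjamini-Hochberg adjusted p under 0.05), with a median change of 0.13, against 7.45% of all tested loci higher and 4.96% lower, so the members' share of 8.64% was near that of all loci. Of loci of similar length 6.62% were higher, and of those above 100 FPKM 8.76%. Rpl14 was at 205, 235 and 204 FPKM in high fat Jnk2 libraries, above the 125, 171 and 135 of control, a change of 0.59 ± 0.12 (limma, adjusted p = 0.00263). Rpl29 on chromosome 9 (chr9:106429535-106431567), whose protein is also known to bind heparin, measured 84.8, 89.6 and 84.5 FPKM in the control libraries against 117, 135.5 and 119.5 in those of Jnk2, a change of 0.52 ± 0.09 (limma, adjusted p = 0.000973). Rps4x, on the X chromosome, was at 203, 234 and 224 FPKM and at 279, 314 and 302, a change of 0.44 ± 0.10 (limma, adjusted p = 0.00818). The 3 genes did not overlap between the groups. Rpl38 passed narrowly, with 0.38 ± 0.12 (adjusted p = 0.0446, and 0.158 without high fat control library 1, 0.148 without control library 3, 0.0515, 0.141 and 0.0707 without Jnk2 library 1, 2 or 3). The count fell to 3 without high fat control library 1 or high fat Jnk2 library 2, and to 0 in a fit of these 2 groups alone. Removing the length trend left 9 members higher, against 7.95% of all tested loci, and that count fell to 4 without high fat control library 1 and to 5 without high fat Jnk2 library 2.

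In high fat Jnk1 against high fat control liver no member passed (limma, Benjamini-Hochberg), 7 had an unadjusted p under 0.05, and 0.227% of all tested loci passed in either direction. The median change of the members was 0.02. On chow no member passed in any genotype by limma. In chow Jnk1 against chow control liver the median change was 0.15, 4 members had an unadjusted p under 0.05, and 2.2% of all tested loci passed. In chow Jnk2 the median was 0.14, 20 members had an unadjusted p under 0.05, and 0.454% of loci passed. In chow Jnk1Jnk2 the median was 0.09, 14 members had an unadjusted p under 0.05, and 0.161% of loci passed. These percentages count loci that passed at an adjusted p under 0.05. They cannot be set against the members' counts at an unadjusted p, for which no share of all loci is given. Weighting the libraries by their quality in limma called 2 members in chow Jnk2, 5 in chow Jnk1Jnk2 and 5 in high fat Jnk1 liver. The share of all tested loci called with these weights is not given, so these counts cannot be read as particular to the members.

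Between the diets, more members were lower than higher on high fat in 3 of the 4 genotypes. In control liver 9 members were lower and 1 higher on the high fat diet (limma, Benjamini-Hochberg adjusted p under 0.05), with a median change of -0.10, against 10.1% of all tested loci higher and 6.19% lower. That is 11.1% of the members lower in control liver. In Jnk1 liver 23 (28.4%) were lower and 0 higher (median -0.20), against 9.22% higher and 5.81% lower. In Jnk2 liver 14 (17.3%) were lower and 2 higher (median -0.17), against 19.7% higher and 6.39% lower. Of loci of similar length above 100 FPKM, 9.12% were lower in control, 15.7% in Jnk1 and 11.3% in Jnk2 liver. With the length trend removed the counts lower were 19 in control (11.1% of all loci), 26 in Jnk1 (9.24%) and 21 in Jnk2 liver (10.7%), with 1 member higher in control (9.52%), 0 in Jnk1 and 1 in Jnk2 liver (12.4%). The 3 values on high fat lay below all 3 on chow for 14 members in control liver (17.3%), 38 for Jnk1 (46.9%) and 19 for Jnk2 liver (23.5%), against 13.6%, 13.3% and 10.4% of all tested loci.

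These counts leaned on single libraries. In control liver the 10 calls became 2 without chow control library 2, 6 without chow control library 3 and 1 without high fat control library 1, and 1 in a fit of these 2 groups alone. In Jnk1 liver the 23 became 14 without chow library 1, 12 without chow library 3, 13 without high fat library 1 and 15 without high fat library 2. In Jnk2 liver the 16 became 7 without chow library 1, 3 without chow library 3, 7 without high fat library 1 and 10 without high fat library 3. Once the length trend was removed, the 20 calls in control liver became 9 without chow control library 2, 13 without chow control library 3 and 9 without high fat control library 1. The 22 in Jnk2 liver became 8 without chow library 3 and 11 without high fat library 1, while the 26 in Jnk1 liver stayed between 19 and 28.

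In control liver Rpsa fell by 0.51 on the log2 scale (limma, Benjamini-Hochberg adjusted p = 0.0221) from 352, 424 and 339 FPKM to 209, 311 and 266, and its adjusted p was 0.103 without chow control library 2 and 0.119 without high fat control library 1. Rplp0 fell by 0.45 (limma, adjusted p = 0.014), and Rpl8, a protein near the peptidyl transferase centre, fell by 0.44 (adjusted p = 0.0134). Rpl23 fell by 0.49 (limma, adjusted p = 0.011) and Rps28, at the exit of the mRNA channel, fell by 0.49 (adjusted p = 0.0231). Without high fat control library 1 the adjusted p was 0.0677 for Rplp0, 0.0651 for Rpl8, 0.0661 for Rpl23 and 0.0937 for Rps28. Without chow control library 2 it was 0.0815 for Rplp0, 0.0699 for Rpl8 and 0.103 for Rps28, without chow control library 3 it was 0.0674 for Rps28, and without high fat control library 3 it was 0.0524 for Rplp0. The 1 member that rose was the p53 target Rps27l, by 0.87 ± 0.28 (limma, adjusted p = 0.0375), from 390, 439 and 429 FPKM to 984, 969 and 473. Its high fat control library 3 was close to the chow level. Without chow control library 1, 2 or 3 its adjusted p was 0.101, 0.0749 and 0.0837, and without high fat control library 1 or 2 it was 0.147 and 0.153.

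In Jnk1 liver the largest changes that passed the test were falls of the small subunit members Rpsa and Rps28, while Rpl36a, at -1.53 ± 0.59, did not pass (limma, Benjamini-Hochberg adjusted p = 0.0904). Rpsa went from 504, 349 and 493 FPKM on chow to 228, 239 and 254 on high fat and fell by 0.88 (SE 0.15; limma, Benjamini-Hochberg adjusted p = 0.000551). Rps28 went from 616, 502 and 728 FPKM to 328, 325 and 346 and fell by 0.87 (SE 0.14; limma, adjusted p = 0.000417). Rps26, which touches the mRNA at the exit site, went from 216, 173 and 224 FPKM to 125, 124 and 129 and fell by 0.68 (SE 0.10; limma, adjusted p = 0.00019). The 3 genes did not overlap between the diets, and they passed under each of the 16 other settings and left-out libraries. Rplp0 fell by 0.49 (limma, adjusted p = 0.00901, and 0.0504 without chow Jnk1 library 3). Rplp2 fell by 0.41 (limma, adjusted p = 0.039), a call lost without any library but chow Jnk1 library 2.

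In Jnk2 liver other members led. Rps14, of the small subunit platform, was at 854, 619 and 972 FPKM on chow and at 415, 521 and 363 on high fat, and fell by 0.90 (SE 0.20; limma, Benjamini-Hochberg adjusted p = 0.00277), under each of the 16 other settings and left-out libraries. Rpl9 was at 1041, 675 and 1340 FPKM and at 509.6, 638 and 433, and fell by 0.91 (SE 0.26; limma, adjusted p = 0.0145). Rpl41 was at 2269, 1351 and 2691 FPKM and at 1036, 1376 and 751, and fell by 0.98 (SE 0.33; limma, adjusted p = 0.0326). For Rpl41 the groups overlapped, chow library 2 being at the level of the high fat ones. Rpl5 fell by 0.79 (limma, adjusted p = 0.00706) and Rps18 by 0.79 (adjusted p = 0.0117). Without chow Jnk2 library 3 the adjusted p was 0.0943 for Rpl9, 0.0518 for Rpl5, 0.0757 for Rps18 and 0.151 for Rpl41. Without chow library 1, or high fat library 1 or 3, that of Rpl41 was 0.0942, 0.0778 and 0.118. Rpl29 on chromosome 9 rose by 0.39 ± 0.09 (limma, adjusted p = 0.00378), a call lost with size factors (adjusted p = 0.0813) and with length and GC trends removed (0.122). Rpl14 rose by 0.33 ± 0.12 (adjusted p = 0.0423), a call lost without any library but high fat Jnk2 library 3. No member was lower in control, Jnk1 and Jnk2 liver at once as deposited, and 37 were lower in at least one. Once the length trend was removed 4 members were lower in all 3, Rpl8 and Rplp0 among them. The same counts were not made over all tested loci, so the 37 and the 4 have no share to be read against.

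In Jnk1Jnk2 liver members were higher on high fat as deposited, and their median change was near 0 once the length trend was removed. As a share of the summed FPKM the members were at 4.88% ± 0.451 on chow and 4.96% ± 0.191 on high fat (SD, n = 3). On high fat 47 members were higher and 0 lower than on chow (limma, Benjamini-Hochberg adjusted p under 0.05), with a median change of 0.39, against 30.1% of all tested loci higher and 26.8% lower. Loci of similar length were higher in 58.1%, with a median of 0.48, and those above 100 FPKM in 73%, with a median of 0.61, so the members' share of 58% was no larger. With the length trend removed 17 members were higher and 5 lower, with a median of 0.02, against 21.6% of all tested loci in each direction and 38.3% higher of the loci of similar length above 100 FPKM. That total of 22 fell to 12 without chow Jnk1Jnk2 library 3 and to 11 without high fat Jnk1Jnk2 library 2. Rps15 rose by 0.84 ± 0.14 (limma, adjusted p = 8.46e-05) and Rpl14 by 0.84 ± 0.12 (adjusted p = 1.16e-05) as deposited, and by 0.47 and 0.42 with the length trend removed. The call of Rps15 was lost with length and GC trends removed (0.33, limma, adjusted p = 0.0505). Rps2 went from 452, 448 and 428 FPKM to 638, 856 and 826 and rose by 0.79 ± 0.12 (limma, adjusted p = 2.63e-05), by 0.37 with the length trend removed and by 0.26 with length and GC trends removed. Rpsa rose by 0.70 ± 0.15 (limma, adjusted p = 0.000513), from 389.8, 340.1 and 317 FPKM on chow, below all 3 values on high fat, and by 0.52 with the length trend removed and 0.42 with quantile normalization. Rplp0 rose by 0.51 ± 0.12 (limma, adjusted p = 0.0013) as deposited and gave 0.13 with the trend removed, where it did not pass. With the trend removed Rpl13a fell by 0.68 (limma, adjusted p = 0.0278), Rpl22l1 by 0.54 (adjusted p = 0.0412) and Rpl12, at the base of the stalk, by 0.50 (adjusted p = 0.0473). As deposited these 3 gave -0.26, -0.16 and -0.10 and did not pass.

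**Figure D4:**
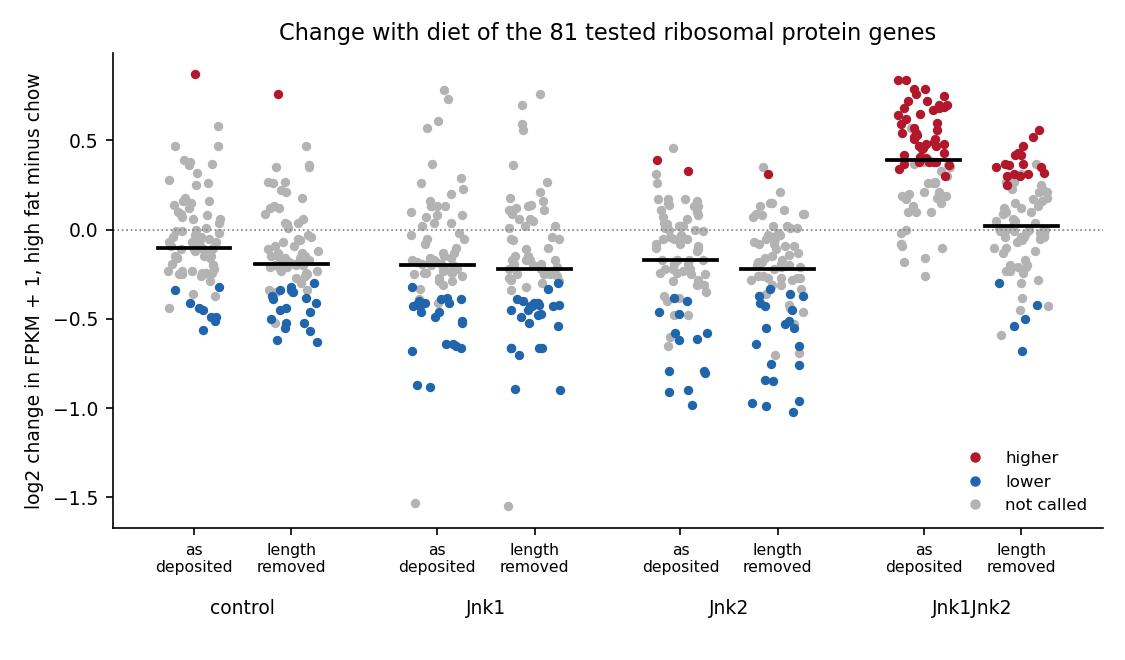
Log2 change in FPKM + 1 between high fat and chow (y axis) of each of the 81 tested ribosomal protein genes, by genotype and as deposited or with the length trend removed (x axis), with called members in red (higher) or blue (lower) and a black line at the median. The medians as deposited are -0.10, -0.20, -0.17 and 0.39, and the last becomes 0.02 with the trend removed.

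The difference in the response to diet was tested as an interaction of diet with genotype, which shares the control libraries with the comparisons above. For Jnk1Jnk2, 40 members had a more positive diet change than in control liver and 0 a more negative one (limma, Benjamini-Hochberg adjusted p under 0.05), with a median of 0.49 on the log2 scale, against 15.8% of all tested loci more positive and 19.1% more negative. They were 26 of 44 large subunit members, 12 of 31 small subunit members and 2 of the other 6. Of loci of similar length 33.7% were more positive, and of those above 100 FPKM 50.7%. With the length trend removed 22 members were more positive and 0 more negative (median 0.22), against 12.2% of all tested loci and 27.7% of the loci of similar length above 100 FPKM, so the members' share of 27.2% was close to that of the latter. Rpsa had the largest difference, 1.21 ± 0.21 (limma, adjusted p = 0.000344), its diet change being -0.51 in control and 0.70 in Jnk1Jnk2 liver. Rps15 gave 1.07 ± 0.20 (limma, adjusted p = 0.000736) and Rplp0 0.96 ± 0.17 (adjusted p = 0.000411). Rps4y2, a transcribed processed pseudogene in the annotation whose reads are uncertain for that reason, gave 1.16 ± 0.30 (limma, adjusted p = 0.00565). The calls of Rps15 and Rps4y2 were lost when trends with both length and GC content were removed (0.54 and 0.58, adjusted p = 0.053 and 0.157), and that setting gave 0.59 for Rplp0. With the length trend alone removed Rpsa gave 1.07, Rps15 0.81, Rplp0 0.65 and Rps4y2 0.83, and each passed.

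For Jnk2 the interaction called 4 members, 2 in each direction, with a median of -0.02, against 6.18% of all tested loci more positive and 3.33% more negative (limma, Benjamini-Hochberg), and 5.85% and 3.36% of loci of similar length. Rps26 gave 0.49 ± 0.14 (adjusted p = 0.0348) and Rpl29 on chromosome 9 gave 0.43 ± 0.13 (adjusted p = 0.0372). Rpl5 gave -1.03 ± 0.28 (limma, adjusted p = 0.0274) and Rpl9 gave -1.19 ± 0.37 (adjusted p = 0.0468). Each of these 4 calls was lost without certain single libraries. For Rpl5 these were chow control 1 and 3, chow Jnk2 3, high fat control 2 and high fat Jnk2 1 (adjusted p 0.0534 to 0.0842). For Rps26 they were chow control 2 and 3, chow Jnk2 1 and 3, high fat control 1 and 2 and high fat Jnk2 2 and 3 (0.0535 to 0.0842). For Rpl29 they were chow control 2 and 3, chow Jnk2 1, 2 and 3, high fat control 1 and high fat Jnk2 2 (0.0573 to 0.0929). Of the 12 left-out libraries, Rpl9 kept its call only without chow Jnk2 2, high fat control 3 or high fat Jnk2 2 (0.0574 to 0.136 otherwise). The count was 1 without chow control library 2, 0 without chow control library 3, 1 without chow Jnk2 library 1 or 3, 1 without high fat control library 1, 15 without high fat control library 3 and 2 without high fat Jnk2 library 1. Removing the length trend made 4 more positive (5.29% of all loci) and 2 more negative (4.39%). Rpl29 on chromosome 9 was not among them (0.45, limma, adjusted p = 0.0602). Its call was also lost with size factors, quantile normalization, the other trend settings and a fit of the groups compared alone. The calls of Rps26, Rpl5 and Rpl9 were each lost in at least 1 other setting too. The total of 6 became 16 without high fat control library 3, and 1 without high fat control library 1 or chow Jnk2 library 3. It became 2 without chow control library 1, 2 or 3 or chow Jnk2 library 1. Without high fat control library 2 or high fat Jnk2 library 3 it was also 2. For Jnk1 no member and 0% of all tested loci passed the interaction (limma), 3 members had an unadjusted p under 0.05, and the median was -0.14. No share of all loci at an unadjusted p is given beside these 3.

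The members did not move as 1 block. Over the 24 libraries the median correlation between pairs of members was 0.58 (3240 pairs), and 0.47 with the length trend removed, as a description of libraries that share depth and processing. Of 81 members, 67 correlated above 0.5 with the median of the others. Rpl7a at 0.97 and Rpl18 at 0.95 followed it most closely, and Rpl41 at 0.13, Rps24 at 0.14 and Rps27l at 0.15 least. The first principal component of the members held 49% of their variance and the second 27.4%. At one end of the second stood Rpl41, Rps24, Rpl9, Rps27l, Rpl17, Rps25, Rps12 and Rpl5, whose median pairwise correlation was 0.84, and at the other Rps4y2, Rps20, Rpl23, Rpl30, Rps26, Rps28, Rpsa and Rpl36a, with 0.78. Between the 2 sets of 8 it was -0.28. The place of a member on this axis had a Spearman correlation of -0.47 with its mean FPKM, 0.19 with transcript length and 0.08 with GC content, across 81 genes.

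The median deviations of the 2 sets varied between groups and between the libraries of a group. The Rpl41 set had median deviations of 0.48, 0.48 and 0.13 in high fat Jnk1 libraries, where the Rpsa set had -0.44, -0.52 and -0.45. In chow control libraries the Rpl41 set was at -0.71, -0.31 and -0.43 and the Rpsa set at 0.03, 0.23 and 0.11. In Jnk2 liver the Rpl41 set was at 0.32, -0.17 and 0.66 on chow and at -0.30, 0.01 and -0.55 on high fat, and the Rpsa set at -0.11, 0.04 and -0.03, then -0.03, 0.19 and 0.06. In chow Jnk1 libraries the Rpl41 set was mixed, at -0.52, 0.26 and -0.10, with the Rpsa set at 0.46, -0.00 and 0.32, and in chow Jnk1Jnk2 libraries they were at 0.27, -0.18 and 0.46 and at 0.09, -0.07 and -0.13. High fat control libraries split, the Rpl41 set being at 0.15, 0.37 and -0.67, with the third low, and the Rpsa set at -0.44, -0.14 and -0.13. In high fat Jnk1Jnk2 libraries both sets were above their means, at 0.32, 0.15 and 0.10 for the Rpl41 set and 0.30, 0.43 and 0.29 for the Rpsa set. Both were chosen from these values, so they are a description with no test. The heat map of deviations shows the 2 ends.

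**Figure D5:**
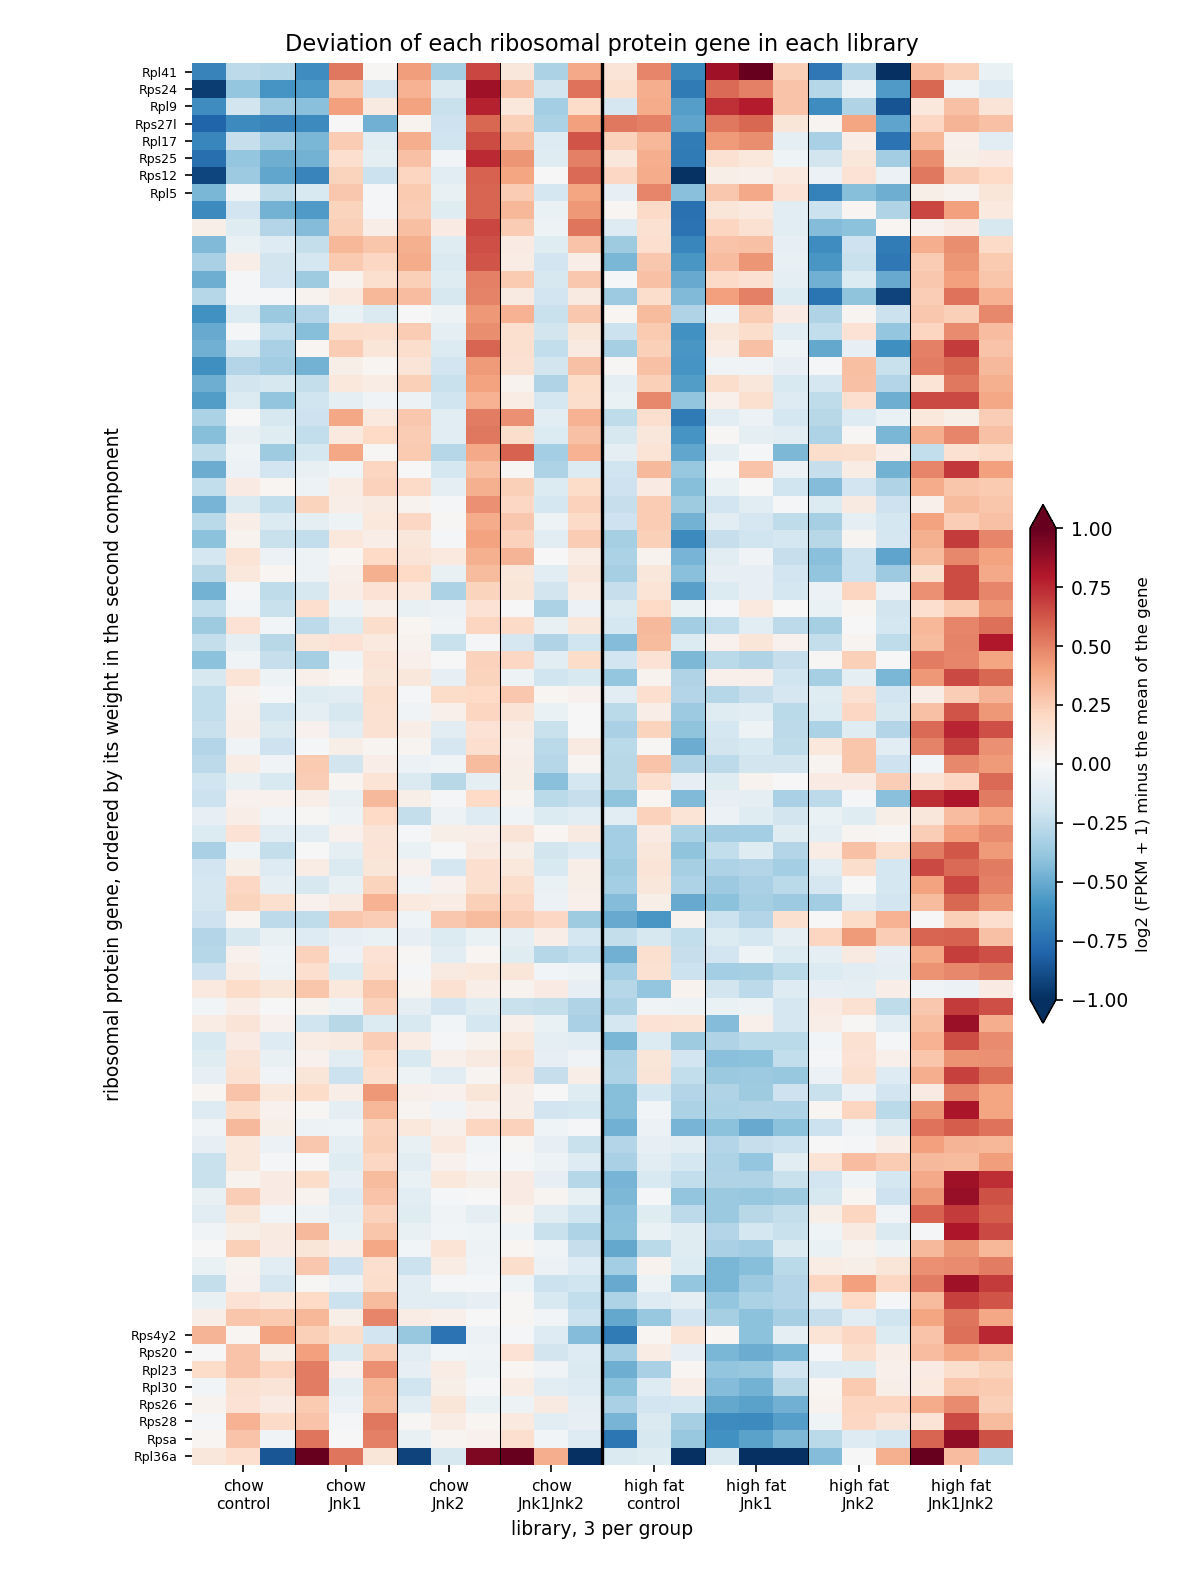
Deviation of log2(FPKM + 1) from the gene's mean over the 24 libraries (colour, red above and blue below, with values past 1 shown at the end of the scale) for each tested ribosomal protein gene (rows, ordered by weight in the second component, with the 8 at each end named) and library (columns, 3 per group). The rows at the 2 ends have opposite colours in the high fat Jnk1 libraries, with medians of 0.13 to 0.48 at one end and -0.52 to -0.44 at the other, and nearly all rows are red in high fat Jnk1Jnk2.

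The loci outside the family whose profile was most like the median member over the 24 libraries were Polr1d, a subunit of RNA polymerase I and III (Pearson r = 0.938), Sla2 (0.929), Psmb4, a proteasome subunit (0.927), Grpel1, a mitochondrial co-chaperone (0.926) and Ddt (0.918). Polr1d, Psmb4 and Ddt have transcripts of 620 to 650 bases, as short as the members, while Sla2 and Grpel1 have 2973 and 3528.

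The genes of the same pathway were read from lists chosen with earlier results of these data known. They are given by their counts in high fat Jnk1Jnk2 against high fat control liver (limma, Benjamini-Hochberg adjusted p under 0.05). In that comparison 19.6% of all tested loci were higher and 31.6% lower, and the counts of each list stand beside these shares. Among ribosomal protein genes whose names the rule does not reach, Fau, made as a fusion with a ubiquitin-like protein, rose by 0.70, and Gnb2l1, which encodes the scaffold Rack1, rose by 0.65. Of 22 translation genes with TOP mRNAs, which include both, 12 were higher and 4 lower, with a median of 0.47. Eif3k rose by 0.93 and Eef1g by 0.71, while Pabpc1 fell by 0.67 and Eef2, the elongation factor that moves the ribosome along, fell by 0.42. Of 46 ribosome biogenesis genes 10 were higher and 11 lower (median 0.03), Nhp2 with 0.97 and Polr1d with 0.70 against Tsr1 with -1.11 and Ddx21 with -0.66. Of 20 genes of mTOR and S6 kinase control 3 were higher and 8 lower (median -0.24). Eif4ebp1, an inhibitor of cap-dependent initiation, rose by 0.88, while its relative Eif4ebp2 fell by 1.38 and Deptor, an mTOR inhibitor, fell by 1.29. Larp1, which binds TOP mRNAs, fell by 0.86, and its relative Larp4 fell by 0.96. Of 7 genes of ribosomal stress and p53, 0 were higher and 1 lower, Mdm4, which fell by 1.51. After removal of the length trend these counts higher and lower became 11 and 1 for TOP mRNAs, where Eef2 no longer passed, 8 and 6 for biogenesis, 4 and 6 for mTOR, whose median turned to 0.03, and 0 and 1 for p53. The genes named so far kept their sign, and apart from Eef2 with -0.22 they passed: Fau gave 0.47, Gnb2l1 0.41, Eif3k 0.69, Eef1g 0.48, Pabpc1 -0.51, Nhp2 0.72, Polr1d 0.48 and Tsr1 -0.86. Eif4ebp1 gave 0.64, Eif4ebp2 -1.57, Deptor -1.06 and Mdm4 -1.38, and the falls of Ddx21, Larp1 and Larp4 shrank to -0.24, -0.30 and -0.60. Some calls changed direction with that step. Ncl, on the TOP and biogenesis lists, went from -0.33 (limma, adjusted p = 0.0369) to 0.31 (adjusted p = 0.0217). Polr1a, on the biogenesis list, went from -0.33 (limma, adjusted p = 0.0277) to 0.35 (adjusted p = 0.015).

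Other families of genes with short transcripts rose as well. Of 73 mitochondrial ribosomal protein genes 54 were higher and 0 lower in the same comparison, with a median of 0.49, and with the length trend removed 39 were higher and 1 lower. Of 77 oxidative phosphorylation subunits 60 were higher and 0 lower (median 0.58), and of 37 proteasome subunits 27 and 0 (median 0.53). With the trend removed these became 46 and 0, and 24 and 0. Whether the members differ from these families was not tested.

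Markers of other cells moved in the same libraries. Of 8 macrophage and Kupffer cell markers 3 were higher and 0 lower in high fat Jnk1Jnk2 against high fat control liver (limma, Benjamini-Hochberg), with a median of 0.31. Of all tested loci 19.6% were higher and 31.6% lower in that comparison. Lyz2 was at 77 ± 24.7 and 175 ± 74.9 FPKM (SD, n = 3), Clec4f at 49.6 ± 3.8 and 63.6 ± 7.18, and Cd68 at 9.41 ± 0.103 and 15.3 ± 3.2. Of 11 hepatocyte marker loci 3 were higher and 4 lower, with a median of -0.23. Between high fat and chow, 5 of the 8 macrophage markers were higher in control liver, 3 with Jnk1 deleted, 6 with Jnk2 deleted and 7 with both. None was lower, while 9, 23 and 14 of the 81 members were lower in the first 3 and 47 higher in the last. Of all tested loci 10.1%, 9.22%, 19.7% and 30.1% were higher in the same order, and 6.19%, 5.81%, 6.39% and 26.8% lower. Removing the length trend left 2 macrophage markers higher in high fat Jnk1Jnk2 against high fat control liver, 2 hepatocyte markers higher and 4 lower there, and 6 macrophage markers higher between the diets with both kinases deleted. The part of these cells in the members' changes was not tested.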

How the data were processed

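Total RNA of mouse liver for 24 libraries (8 groups of 3) was extracted with RNeasy at a RIN above 9, per the labels. TopHat, Cufflinks, Cuffdiff and the build mm10 are named, per the submitters' processing notes, with versions and settings not given in the sources used here. FPKM per locus and library are what the authors deposited, so no read counts were used and depth is unknown.

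Groups followed the sample titles. Loci with a mean of at least 1 FPKM over all libraries (10562) were tested with limma 3.58.1 (R 4.3.3) in trend mode on log2(FPKM + 1), with 8 group means, 16 residual degrees of freedom and Benjamini-Hochberg adjustment over all tested loci of a contrast, called below 0.05. Fold changes are on that scale, which understates low loci. The length trend was a loess curve (span 0.5) of each library's deviations on log2 transcript length, for the 10166 loci (96.3%) with a length. The script was tested on simulated data. The members, gene lists and settings were chosen with earlier results of these data known.

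Some members and list genes that the rule would name are not reported here. Members were named by rule: stalk proteins, Rpsa, Rps6, Rpl5, Rpl11 and other well-known members, paralogue pairs, the 5 highest and 5 lowest, and per contrast the 3 largest called rises and falls, as deposited and with length removed; up to 4 for other lists; the 5 most alike loci. Alternatives changed the pseudocount (0.1), filter, size factors, quantile normalization, array weights, the samples fitted, the replicate block, the libraries left out and, added after seeing the data, the trend fitted without members or with GC content, and left-out libraries with the trend removed.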

Additional observations from a re-analysis of the deposited data

Results flagged for a closer look

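The diet change of 40 ribosomal protein genes differed between Jnk1Jnk2 and control liver by the interaction term (limma, Benjamini-Hochberg adjusted p under 0.05), and 40 of the 40 were more positive in Jnk1Jnk2. That is 49.4% of the members, against 15.8% of all tested loci and 50.7% of loci of similar length above 100 FPKM. The count was 22 with the length trend removed (27.2%, against 27.7% of those loci). As deposited the 40 included Rpsa with a difference of 1.21 on the log2 scale, Rps4y2 with 1.16, Rps15 with 1.07 and Rplp0 with 0.96. The calls of Rps4y2 and Rps15 were lost with length and GC trends removed (limma, adjusted p = 0.157 and 0.053). In Jnk2 liver the diet change of 4 members differed from that in control liver by the same test: Rps26 with 0.49 and Rpl29 (chromosome 9) with 0.43 were more positive, and Rpl5 with -1.03 and Rpl9 with -1.19 more negative. These are 2.47% of the members in each direction, against 6.18% of all tested loci more positive and 3.33% more negative. Each of the 4 calls was lost without certain single libraries and under some other settings.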

How the results depend on the processing

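Depth is unknown, and 3 libraries per group limit the precision. The replicate numbers did not pair the libraries: over 84 same-numbered pairs of libraries of different groups the median correlation of deviations was -0.022 (-0.26 to 0.33), so the fit with a replicate block is given here only. With the block, 60 members were called in high fat Jnk1Jnk2 against high fat control, 7 in high fat Jnk2, 11, 22, 14 and 47 with diet in control, Jnk1, Jnk2 and Jnk1Jnk2, 4 and 39 in the interactions for Jnk2 and Jnk1Jnk2, and 0 elsewhere.

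Without 1 library in turn, as deposited and then with the length trend removed, the counts ranged from 48 to 68 and 34 to 52 in high fat Jnk1Jnk2, 3 to 9 and 4 to 13 in high fat Jnk2, 1 to 12 and 9 to 23 with diet in control, 12 to 27 and 19 to 28 in Jnk1, 3 to 17 and 8 to 22 in Jnk2, 38 to 48 and 11 to 19 in Jnk1Jnk2, and 0 to 15 and 1 to 16, then 35 to 46 and 16 to 29, in the interactions for Jnk2 and Jnk1Jnk2. The medians ranged, in the same way, from 0.54 to 0.74 and 0.33 to 0.51 in high fat Jnk1Jnk2, 0.00 to 0.22 in high fat Jnk2, -0.22 to 0.01 with diet in control, 0.34 to 0.46 and -0.01 to 0.09 with diet in Jnk1Jnk2, -0.24 to 0.01 in the interaction for Jnk1, -0.13 to 0.09 and -0.10 to 0.08 in that for Jnk2, and 0.42 to 0.65 and 0.17 to 0.36 in that for Jnk1Jnk2.

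Counts moved by more than 1.5 times under these settings. They are counts of members, and the shares of all tested loci under these settings are not given beside them. Array weights called 2 in chow Jnk2, 5 in chow Jnk1Jnk2, 5 in high fat Jnk1, 23 in high fat Jnk2, 29 with diet in control and 23 in the interaction for Jnk2. A fit of only the groups compared called 0 in high fat Jnk2, 1 with diet in control, 12 in Jnk1 and 4 in Jnk2, and 1 in the interaction for Jnk2. Size factors called 4 in high fat Jnk2 and 2 (0 higher, 2 lower) in the interaction for Jnk2, and with diet in Jnk2 liver 0 higher and 20 lower. With no filter 10 were called with diet in Jnk2 and 2 in the interaction for Jnk2. Quantile normalization called 24 with diet in Jnk1Jnk2 and 8 (6 higher, 2 lower) and 26 in the interactions for Jnk2 and Jnk1Jnk2. Removing the length trend, that of non-members, and those of length and GC content called 20, 20 and 18 with diet in control, 22, 21 and 19 with diet in Jnk1Jnk2, and 22, 22 and 16 in the interaction for Jnk1Jnk2.

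Under quantile normalization and those 3 settings in turn, the median change was 0.35, 0.38, 0.39 and 0.34 in high fat Jnk1Jnk2, 0.14, 0.02, 0.02 and 0.03 with diet in Jnk1Jnk2, and 0.28, 0.22, 0.22 and 0.24 in that interaction. The median of the interaction for Jnk2 became 0.02 with quantile normalization and 0.06 with array weights. The scaling moved the median of all loci most for diet in Jnk2 liver, from 0.10 to -0.01.

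Some members not called in high fat Jnk1Jnk2 against high fat control turned to a negative change. With quantile normalization these were Rpl4 (-0.06), Rpl5 (-0.15), Rps24 (-0.10), Rpl13a (-0.10) and Rps27l (-0.16), and with array weights Rps27l (-0.05). With the length trend removed they were Rpl4 (-0.03), Rpl41 (-0.01), Rps24 (-0.02), Rpl13a (-0.02), Rpl22l1 (-0.02) and Rps27l (-0.10), and with the trend of non-members Rpl4 (-0.02), Rps24 (-0.00), Rpl13a (-0.02), Rpl22l1 (-0.01) and Rps27l (-0.09). With length and GC removed they were Rpl41 (-0.13), Rpl13a (-0.09) and Rps27l (-0.01). Without 1 library in turn the range was -0.13 to 0.32 for Rpl5, -0.15 to 0.42 for Rpl41, -0.13 to 0.41 for Rps24, -0.02 to 0.42 for Rpl13a and -0.24 to 0.29 for Rps27l, and with diet in Jnk1Jnk2 -0.27 to 0.02 for Rpl12 and -0.43 to 0.03 for Rpl22l1. The cause was not tested. Over 1152 alternative values of 69 named changes, 914 kept direction and side of the threshold, 168 lost the call, 42 gained one and 28 changed direction.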
